A study of Mus musculus with 8 samples.

Results

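The B cell receptor signalling cascade was described here through 37 genes that act inside the cell between the receptor and the nucleus, named as a list of kinases, adaptors, phosphatases, lipid enzymes, exchange factors and transcription factors. All 37 were found, by symbol, in both deposited tables, which hold 23469 genes. The libraries came from germinal centre (GC) B cells, in which antibody genes are mutated and selected, sorted as B220+ FAShigh GL7high from C57BL/6 mice on day 13 of a response to the hapten-carrier antigen NP-KLH. Control mice (Ctrl) were CD19cre/+ Irf8+/+ and conditional knockout mice (Irf8 cKO) were CD19cre/+ Irf8flox/flox, so both groups carried the CD19cre allele, whose Cre is active in B cells. There were 2 experiments with 1 library per genotype in each, all made from amplified RNA, and 4 samples of B cells cultured with lipopolysaccharide were not analysed here. The comparison asks what loss of the transcription factor IRF8 does to GC B cell transcripts. Mouse ages and the number of mice behind a library are not stated in the labels, so p-values measure only the spread between these libraries, which may be technical.

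When antigen binds the receptor, Src family kinases such as LYN phosphorylate its tails, SYK docks there and is activated, and SYK then phosphorylates the adaptor BLNK, on which BTK, PLCγ2 and VAV proteins assemble. PLCγ2 makes the messengers that release calcium, which activates NFAT factors, and that activate protein kinase C, which leads to NF-kB through BCL10 and MALT1. Phosphatases such as SHP-1 (Ptpn6) and SHIP-1 (Inpp5d), and the kinase CSK, hold the cascade back, and GC B cells are known for damped receptor signalling with high phosphatase activity.

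Values are given as scaled RPKM (reads relative to transcript length and library size, divided by 1 size factor per library), and ratios as log2 of scaled RPKM + 1, which understates the change of low genes. In the RPKM as deposited all genes together were displaced, with a median log2 ratio of -0.35 over 6446 tested genes, -0.18 in experiment 1 and -0.51 in experiment 2, and scaling brought it to -0.019. Size factors were 1.259 and 1.121 for Ctrl 1 and 2 and 1.059 and 0.675 for the pair labelled Irf8 cKO 1 and 2. Estimated depth was 63.2 to 76.3 M reads, of which annotated exons held 7.33% to 13.2%, lowest in the library labelled Irf8 cKO 2. Irf8 itself was not lower on the scaled values in the pair labelled Irf8 cKO: it measured 11.5 and 13.3 scaled RPKM in Ctrl 1 and 2, then 19.5 and 17.2 in the pair labelled Irf8 cKO (log2 ratio 0.53, adjusted p = 0.300, limma). As deposited it measured 14.5 and 14.9 RPKM, then 20.6 and 11.6, higher in experiment 1 and lower in experiment 2 (log2 ratio 0.077). The tables give 1 value per gene over all exons, which does not check a deletion of some of them, so every direction below is that of the libraries as labelled. Among markers, 7 B cell genes summed to 245 to 295 scaled RPKM and 9 GC B cell genes to 150 to 161 across libraries, whereas 11 T cell genes summed to 0.169 to 0.657 and 5 NK cell genes to 0.0672 to 0.107. Myeloid markers, 13 genes, summed to 71.2 and 16.1 in Ctrl 1 and 2, then 27.2 and 12.4 in the pair labelled Irf8 cKO 1 and 2, with C1qb and Cd14 at 0 in all 4, and their part in the results below was not tested.

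None of the cascade's tested genes passed the test. Of 36 members that passed the filter on low values (deposited RPKM reaching 1 in 2 or more libraries), 0 were lower and 0 higher at an adjusted p under 0.05 (limma, Benjamini-Hochberg), where 0.403% of all tested genes were lower and 0.233% higher. Those shares depend on the setting, from 0 to 70 genes lower and 0 to 37 higher. At an unadjusted p under 0.05 limma gave 2 members higher, Nfatc1 and Sh3bp2, and 0 lower, against 5.35% and 6.10% of all tested genes. Sh3bp2 passed the filter only through the pair labelled Irf8 cKO, in which it is high, so its p-value and interval are no support by themselves. The median log2 ratio of the members was -0.019, equal to that of all tested genes, with 16 members above 0 and 20 below. The sign was the same in both experiments for 44.4% of members and 57.4% of all tested genes. Their ratios ran from -0.51 (Hcls1) to 0.54 (Nfatc1), and 91.7% lay within 0.5 of 0, as did 95.5% of all tested genes. The 95% interval of a member's ratio, which is not adjusted for the number of genes, reached 0.35 to 0.54 to either side. A change had to be larger than that to pass the adjusted test. Nfatc1 at 0.54 and Sh3bp2 at 0.51 had intervals clear of 0 and were not called (adjusted p = 0.298 and 0.229, limma). The absence of calls therefore leaves room for changes of this size in the members. On the deposited scale the members' median was -0.40 and 34 of 36 lay below 0, as did 5954 of 6446 genes. Nfatc1 and Sh3bp2 were the exceptions. There limma called 0 members at an adjusted p under 0.05, against 1.09% of genes lower and 0.0931% higher. At an unadjusted p under 0.05 it gave 7 members lower (Cblb, Grb2, Hcls1, Lat2, Lyn, Ptprc and Rasgrp3) and 0 higher, against 18.6% and 0.264% of genes.

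**Figure D1:**
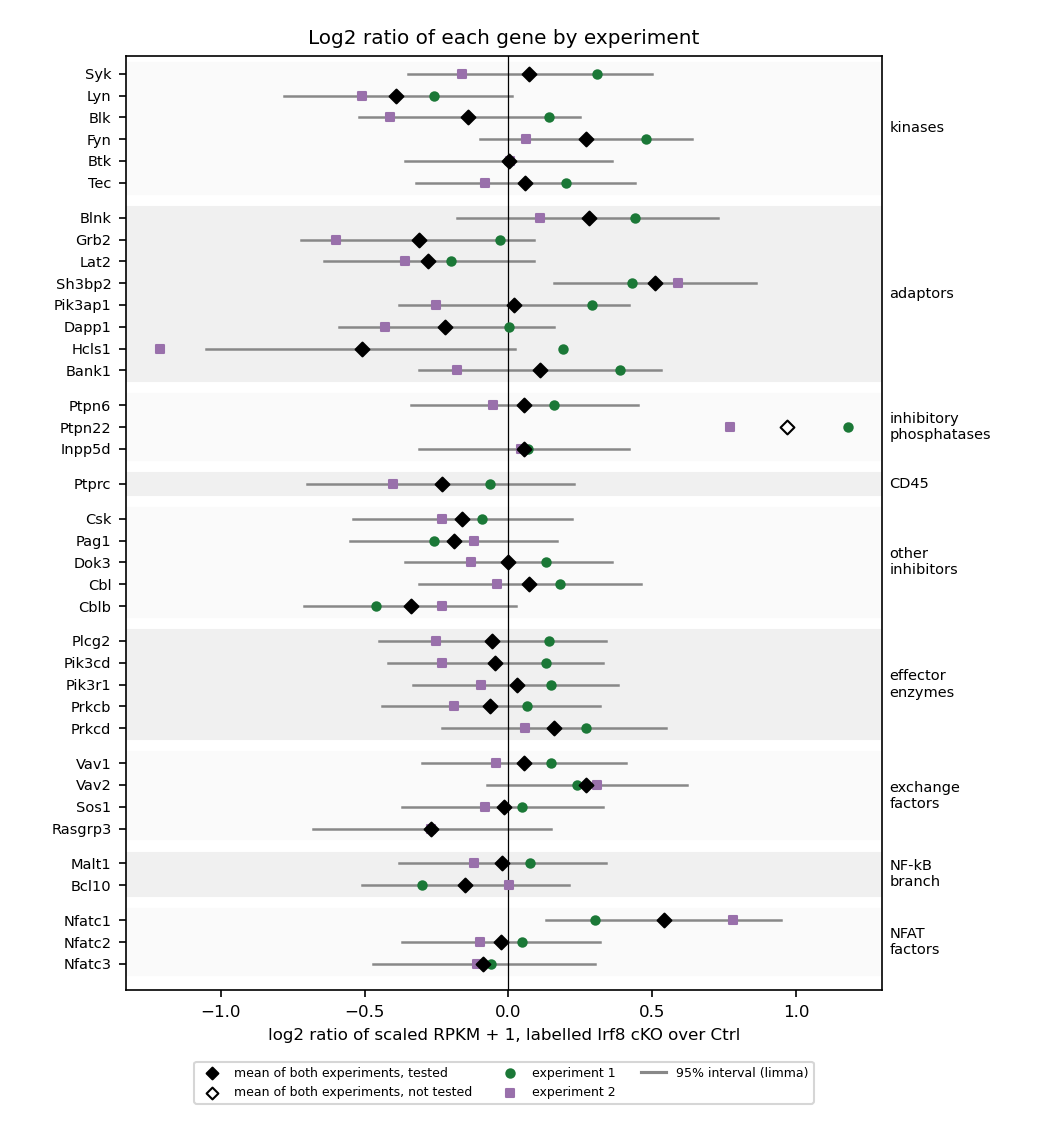
Log2 ratio of scaled RPKM + 1, libraries labelled Irf8 cKO over Ctrl, for each of the 37 genes by role; diamonds are the mean of both experiments (open where the gene was not tested), circles experiment 1, squares experiment 2, bars the 95% interval from limma. The intervals of 34 of 36 tested genes cross 0, and Ptpn22 stands apart at 0.97.

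The member with the largest difference was the 1 that the filter left out. Ptpn22 (NM_008979, chromosome 3, 103860292 to 103912247, plus strand, mm10) encodes the phosphatase PEP, which partners CSK and removes activating phosphates from Src and Syk family kinases. It measured 0.309 and 0.361 scaled RPKM in Ctrl 1 and 2, then 1.96 and 1.32 in the pair labelled Irf8 cKO 1 and 2. Both libraries labelled Irf8 cKO lay above both Ctrl libraries, by 6.36 times in experiment 1 and 3.66 times in experiment 2. With the depth estimates above, these values stand for about 78 and 70 reads in the Ctrl libraries and 435 and 156 in the others. Mean ± SD was 0.335 ± 0.0367 for Ctrl (n = 2) and 1.64 ± 0.456 for the pair labelled Irf8 cKO (n = 2).

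Ptpn22 missed the filter narrowly, with a second highest deposited RPKM of 0.891, while Sh3bp2 passed at 1.13 and Nfatc2 at 1.38. The filter was set on deposited RPKM. On the scaled values Ptpn22 exceeded 1 in both libraries labelled Irf8 cKO (1.96 and 1.32), the group in which it is high. Its log2 ratio of 0.97 was the mean of 1.18 (experiment 1) and 0.77 (experiment 2), and stood at 0.79 on the deposited scale. With no filter on low values limma gave it an SE of 0.21 and an adjusted p of 0.50, in a fit that called 0 of 15557 genes. At an unadjusted p under 0.05 that fit gave 2 members lower and 3 higher, against 3.84% and 3.99% of genes. A filter chosen after seeing the data, RPKM of 1 or more in at least 1 library, let it in with an adjusted p of 0.0243, or 0.0146 with a pseudocount of 0.1 (limma), where 0.350% and 0.517% of 7150 genes were called higher. Under that filter Ptpn22 entered through a library in which it is high, so the call is no support by itself. In the authors' deposited table its log2 ratio was 2.63 (unadjusted p = 6.8e-07) in experiment 1 and 1.86 (unadjusted p = 0.0109) in experiment 2. Of 7150 genes at 1 RPKM or more in any library, 61 (0.853%) had the same sign in both experiments and an unadjusted p under 0.05 in each in the authors' deposited table, and Ptpn22 was the only member among them. Those 7150 genes are the set of the same added filter, which Ptpn22 passed through a library in which it is high. This count is therefore no support by itself either. Taken singly, experiment 1 had 0 members lower and 1 higher, against 3.01% and 1.89% of genes, and experiment 2 had 1 lower (Hcls1) and 2 higher (Ptpn22 and Nfatc1), against 1.93% and 1.89%, in the authors' deposited table. Each of those p-values compares 1 library with 1 library, not the conditions. Ptpn22 is also a gene of T cells, and the 11 T cell markers moved with it: their sum was 0.169 and 0.233 scaled RPKM in Ctrl 1 and 2, and 0.483 and 0.657 in both libraries labelled Irf8 cKO, each above both Ctrl libraries. Lat (0.114 and 0.0342, then 0.280 and 0.393) and Zap70 (0.00991 and 0, then 0.113 and 0.0635) were higher there too. Every one of the 11 stayed below 1, Cd3g was listed at 0 in all 4 libraries, Cd3d reached 0.0347 in the library labelled Irf8 cKO 2 and Cd3e 0.0783 in Ctrl 2. The part of T cell RNA in the difference of Ptpn22 was not tested.

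For the other inhibitory phosphatases the groups overlapped, and neither passed the test. Ptpn6, which encodes SHP-1, the phosphatase recruited by inhibitory receptors, measured 10.7 and 13.6 scaled RPKM in Ctrl 1 and 2, then 12.0 and 13.0 in the pair labelled Irf8 cKO 1 and 2. Its log2 ratio was 0.054 (95% interval -0.34 to 0.45; adjusted p = 0.941, limma), and -0.40 as deposited. Inpp5d, which encodes the lipid phosphatase SHIP-1, measured 5.44 and 6.25 against 5.75 and 6.47. Its log2 ratio was 0.056 (95% interval -0.31 to 0.42; adjusted p = 0.932, limma), and -0.36 as deposited. A ratio taken within a library does not depend on its size factor: Ptpn22 stood at 0.0290 and 0.0266 of Ptpn6 in Ctrl 1 and 2, and at 0.163 and 0.101 in the pair labelled Irf8 cKO. Against its partner Csk the ratio was 0.0294 and 0.0313, then 0.201 and 0.136. In those libraries too Ptpn22 was the scarcest of the 3 inhibitory phosphatases.

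**Figure D2:**
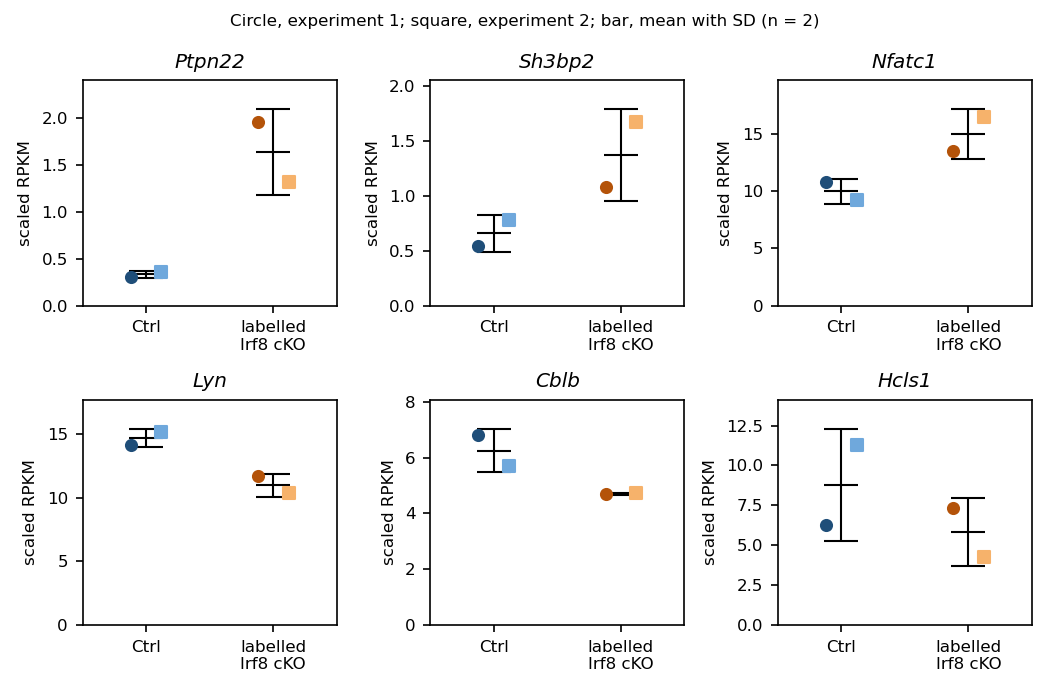
Scaled RPKM in each library (circles experiment 1, squares experiment 2) with the mean and SD of each group (n = 2) for 6 genes, each axis from 0. Ptpn22, Sh3bp2 and Nfatc1 are higher, and Lyn and Cblb lower, in both libraries labelled Irf8 cKO than in both Ctrl libraries, while the groups overlap for Hcls1.

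Of the 6 kinases 0 passed the test, and 2, Lyn and Fyn, had ratios of the same sign in both experiments. Lyn, the Src family kinase that starts signalling and also feeds inhibitory receptors, measured 14.2 and 15.2 scaled RPKM in Ctrl 1 and 2, then 11.7 and 10.4 in the pair labelled Irf8 cKO 1 and 2. Both of the latter lay below both Ctrl libraries. Its log2 ratio was -0.39 (SE 0.19, 95% interval -0.78 to 0.013; adjusted p = 0.452, limma), with -0.26 and -0.51 in experiments 1 and 2, and it stayed between -0.46 and -0.31 when any 1 library was left out. The entry 6330407A03Rik overlaps Lyn on the same strand. It measured 1.85 and 2.81 scaled RPKM in Ctrl 1 and 2, then 3.44 and 2.37 in the pair labelled Irf8 cKO 1 and 2. How shared reads were assigned is not given in the sources at hand, so the values of Lyn are uncertain to that extent.

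Syk, the kinase that docks on the phosphorylated receptor, measured 12.6 and 18.8 scaled RPKM in Ctrl 1 and 2, then 15.8 and 16.7 in the pair labelled Irf8 cKO. Its 2 Ctrl libraries lay further apart than the genotypes did, with a log2 ratio of 0.072 (95% interval -0.35 to 0.50; adjusted p = 0.927, limma). The ratio of Lyn to Syk within a library was 1.12 and 0.808 in Ctrl 1 and 2, then 0.737 and 0.620 in the pair labelled Irf8 cKO. Blk, a Src family kinase of the B lineage, measured 3.27 and 4.52 in Ctrl and 3.70 and 3.15 in the pair labelled Irf8 cKO (log2 ratio -0.14, adjusted p = 0.826, limma). Fyn, the Src family kinase shared with T cells, measured 1.27 and 2.30 against 2.16 and 2.44 (log2 ratio 0.27, adjusted p = 0.594, limma), with the low value in Ctrl 1 alone. For both genes the groups overlapped. The ratio of Fyn went to -0.046 on the deposited scale.

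In the Tec family the groups overlapped. Btk, the kinase that activates PLCγ2 and is mutated in X-linked immunodeficiency, measured 5.87 and 4.78 scaled RPKM in Ctrl 1 and 2, then 5.87 and 4.81 in the pair labelled Irf8 cKO 1 and 2. In each experiment the genotypes gave nearly the same value, and the log2 ratio was 0.003 (95% interval -0.36 to 0.36; adjusted p = 0.997, limma). Tec measured 6.77 and 8.63 in Ctrl and 7.92 and 8.10 in the pair labelled Irf8 cKO (log2 ratio 0.058, 95% interval -0.32 to 0.44; adjusted p = 0.932, limma). On the deposited scale, where all genes were displaced, Btk lay at -0.40, Tec at -0.37 and Syk at -0.39, near the -0.35 of all genes.

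Among 8 adaptors 0 passed the test, and 4 had the same sign in both experiments. Sh3bp2 encodes an adaptor that binds SYK, PLCγ2 and VAV proteins. It measured 0.540 and 0.778 scaled RPKM in Ctrl 1 and 2, then 1.08 and 1.67 in the pair labelled Irf8 cKO 1 and 2. Both of the latter were higher, with a log2 ratio of 0.51 (SE 0.16, 95% interval 0.16 to 0.86; adjusted p = 0.229, limma), 0.43 and 0.59 by experiment and 0.27 on the deposited scale. Its deposited RPKM reached 1 only in the pair labelled Irf8 cKO, so it passed the filter through the group in which it is high. About 151 and 167 reads stood behind it in the Ctrl libraries, and 264 and 219 in the others.

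Blnk, the scaffold on which BTK and PLCγ2 meet, was the most abundant adaptor. It measured 24.3 and 27.6 scaled RPKM in Ctrl 1 and 2, then 33.2 and 29.9 in the pair labelled Irf8 cKO. The groups did not overlap, yet the log2 ratio of 0.28 (95% interval -0.18 to 0.73; adjusted p = 0.668, limma) went to -0.20 on the deposited scale. Grb2, which links receptors to SOS proteins and RAS, measured 9.09 and 8.92 in Ctrl and 8.90 and 5.55 in the pair labelled Irf8 cKO, so that its log2 ratio of -0.31 (adjusted p = 0.567, limma) came almost wholly from experiment 2, at -0.60 against -0.028, and lay between -0.61 and -0.016 when any 1 library was left out. Lat2, which encodes the membrane adaptor NTAL, measured 5.95 and 7.68 against 5.07 and 5.76, lower in each experiment (log2 ratio -0.28, 95% interval -0.64 to 0.088; adjusted p = 0.577, limma).

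Hcls1, which encodes HS1, an actin-binding substrate of LYN and SYK, had the widest gap between experiments of the adaptors. It measured 6.29 and 11.3 scaled RPKM in Ctrl 1 and 2, then 7.31 and 4.29 in the pair labelled Irf8 cKO 1 and 2, which gave log2 ratios of 0.19 and -1.21. In the authors' deposited table it had a log2 ratio of -1.40 (unadjusted p = 4.9e-04) in experiment 2 and 0.17 (unadjusted p = 0.627) in experiment 1. The mean ratio of -0.51 had an adjusted p of 0.460 (limma). Of the remaining adaptors, Dapp1 (BAM32, which binds products of PI3K) measured 3.21 and 3.97 against 3.22 and 2.68. Bank1, a scaffold that joins LYN to calcium channels, measured 10.4 and 13.7 against 14.0 and 11.9, and Pik3ap1 (BCAP, which recruits PI3K) 6.30 and 9.88 against 7.95 and 8.13. All 3 overlapped between groups, with log2 ratios of -0.22, 0.11 and 0.021.

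Activating kinases and adaptors were set against inhibitory phosphatases by their medians. The median log2 ratio was 0.012 over the 14 kinases and adaptors and 0.055 over Ptpn6 and Inpp5d, a difference of -0.043 (activating minus inhibitory), with 0.078 in experiment 1 and -0.21 in experiment 2. With Ptpn22 included the phosphatase median was 0.056 and the difference -0.044. On the deposited scale the difference was -0.026, so its sign held there but not between experiments, and it lay between -0.18 and 0.029 when any 1 library was left out. Summed within a library, the 6 kinases stood at 2.68 and 2.69 times the 3 inhibitory phosphatases in Ctrl 1 and 2, and at 2.39 and 2.19 times in the pair labelled Irf8 cKO 1 and 2. That ratio needs no scaling, and both libraries labelled Irf8 cKO lay below the Ctrl libraries, which differed little. Of the kinases only Lyn (lower), and of the phosphatases only Ptpn22 (higher, not among the tested genes), had groups that did not overlap. Over all tested genes the groups did not overlap for 17.2% in the lower and 14.0% in the higher direction. Lyn and Ptpn22 are in the sums, so the ratio does not show a shift of either class as a whole. With the adaptors added to the kinases it was 6.71 and 6.84 in Ctrl 1 and 2, then 6.47 and 5.55 in the pair labelled Irf8 cKO. The summed kinases measured 44.0 and 54.3 scaled RPKM in Ctrl, then 47.1 and 45.6 in the pair labelled Irf8 cKO, and the summed phosphatases 16.4 and 20.2 against 19.8 and 20.8. These ratios were chosen with the values known and carry no test.

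Ptprc encodes CD45, the phosphatase that keeps Src kinases ready to act, and its B220 form was part of the sort. It was the most abundant member in both Ctrl libraries and came after Blnk in both labelled Irf8 cKO, at 29.6 and 39.5 scaled RPKM in Ctrl 1 and 2, then 28.2 and 29.7 in the pair labelled Irf8 cKO 1 and 2. Only Ctrl 2 stood above the rest, and the log2 ratio was -0.23 (95% interval -0.70 to 0.23; adjusted p = 0.738, limma), or from -0.44 to -0.028 when any 1 library was left out.

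Of the 5 other inhibitors 0 passed the test, and 4 lay below 0, 3 of them in both experiments. Of all 6446 tested genes 3445 lay below 0, and 30.2% did so in both experiments. Cblb, an E3 ubiquitin ligase that restrains SYK and PI3K signalling, measured 6.80 and 5.69 scaled RPKM in Ctrl 1 and 2, then 4.69 and 4.72 in the pair labelled Irf8 cKO 1 and 2. Both of the latter lay below both Ctrl libraries (log2 ratio -0.34, SE 0.17, 95% interval -0.71 to 0.025; adjusted p = 0.475, limma). Its relative Cbl measured 9.50 and 9.82 against 10.9 and 9.54 (log2 ratio 0.072, and -0.37 as deposited). Within a library Cblb stood at 0.715 and 0.580 of Cbl in Ctrl 1 and 2 and at 0.430 and 0.495 in the pair labelled Irf8 cKO. Csk, which phosphorylates the inhibitory tail of Src kinases, measured 10.5 and 11.5 against 9.79 and 9.70 (log2 ratio -0.16, adjusted p = 0.792, limma). Pag1, the membrane anchor of CSK, measured 4.70 and 4.63 against 3.75 and 4.18 (log2 ratio -0.19, adjusted p = 0.712, limma). Neither gene overlapped between groups, though the intervals of both included 0. Dok3, an adaptor that recruits SHIP-1, measured 3.67 and 5.10 against 4.11 and 4.57, with a log2 ratio of -0.001.

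Of 5 enzymes that make or read second messengers 0 passed the test. Plcg2 measured 8.35 and 12.7 scaled RPKM in Ctrl 1 and 2, then 9.31 and 10.5 in the pair labelled Irf8 cKO. Pik3cd, the catalytic subunit of lymphocyte PI3K, measured 4.20 and 6.50 against 4.70 and 5.40, and its regulatory subunit gene Pik3r1 2.11 and 2.50 against 2.46 and 2.27. In all 3 the Ctrl libraries enclosed the others. Protein kinase C β (Prkcb), which feeds NF-kB, measured 8.94 and 8.41 against 9.40 and 7.25, and protein kinase C δ (Prkcd), known from B cell tolerance, 8.98 and 12.0 against 11.0 and 12.6. Log2 ratios of these 5 ran from -0.062 (Prkcb) to 0.16 (Prkcd), with adjusted p from 0.791 to 0.972 (limma), and Prkcd lay at -0.29 as deposited.

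Exchange factors load GTP onto small GTPases. Rasgrp3, which activates RAS after PLCγ2, was the third most abundant member and measured 19.7 and 20.6 scaled RPKM in Ctrl 1 and 2, then 16.2 and 17.0 in the pair labelled Irf8 cKO. It was lower by the same amount in each experiment, at -0.27 in both on the log2 scale (SE 0.19, 95% interval -0.68 to 0.15; adjusted p = 0.648, limma). Vav2 measured 1.59 and 2.09 against 2.05 and 2.84 (log2 ratio 0.27, adjusted p = 0.561, limma, and -0.060 as deposited). Vav1, the main haematopoietic VAV, measured 2.91 and 3.41 against 3.35 and 3.28, and Sos1, which acts on RAS with GRB2, 1.32 and 1.19 against 1.40 and 1.07, with log2 ratios of 0.055 and -0.016. In the NF-kB branch Malt1, a protease, measured 4.34 and 4.58 against 4.62 and 4.14, and its partner Bcl10 4.19 and 2.68 against 3.21 and 2.69. Their log2 ratios were -0.022 and -0.15.

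Of the 3 NFAT factors, which enter the nucleus when calcium rises, 0 passed the test and Nfatc1 had the highest ratio. Nfatc1 (chromosome 18, 80647435 to 80713071, minus strand, mm10) measured 10.8 and 9.22 scaled RPKM in Ctrl 1 and 2, then 13.5 and 16.5 in the pair labelled Irf8 cKO 1 and 2. Both of the latter were above both Ctrl libraries, at 15.0 ± 2.15 against 9.99 ± 1.09 (mean ± SD, n = 2 each). Limma put its log2 ratio at 0.54 (SE 0.19, 95% interval 0.13 to 0.95; adjusted p = 0.298), 0.30 and 0.78 by experiment, and 0.085 on the deposited scale. It stayed between 0.40 and 0.68 when any 1 library was left out. In the authors' deposited table its log2 ratio was 0.28 (unadjusted p = 0.372) in experiment 1 and 0.81 (unadjusted p = 0.0143) in experiment 2.

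Nfatc3 measured 12.0 and 10.5 scaled RPKM in Ctrl 1 and 2, then 11.4 and 9.66 in the pair labelled Irf8 cKO, and Nfatc2 1.14 and 1.23 against 1.21 and 1.08. Their log2 ratios were -0.087 and -0.025, and the groups overlapped. Nfatc1 stood at 0.899 and 0.875 of Nfatc3 in Ctrl 1 and 2, and at 1.18 and 1.71 in the pair labelled Irf8 cKO. The order of the 2 factors by RPKM was thus reversed in both of those libraries, on either scale.

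**Figure D3:**
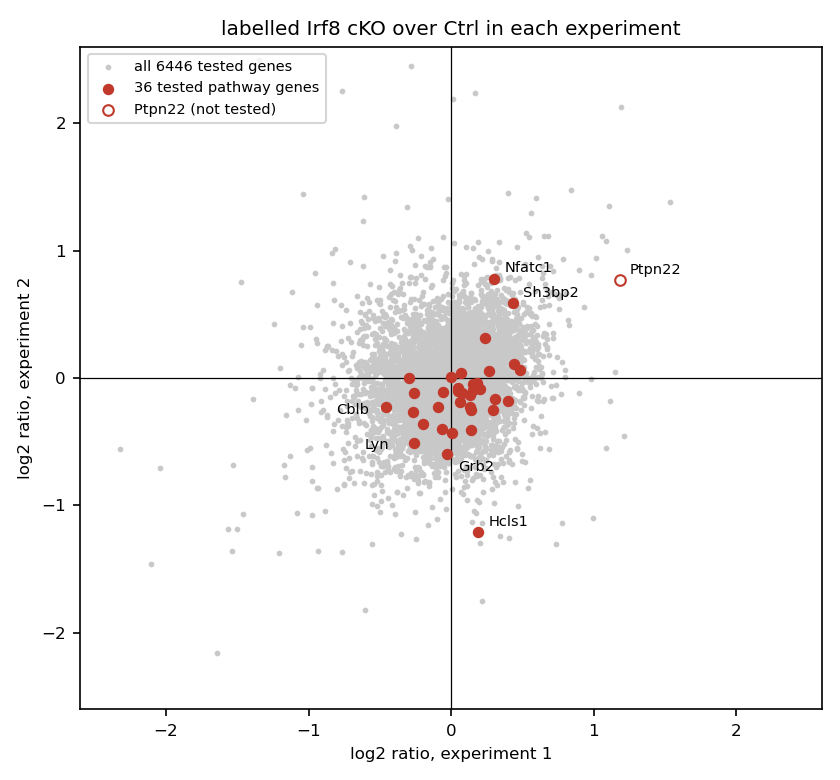
Log2 ratio of scaled RPKM + 1 in experiment 1 (horizontal) and experiment 2 (vertical), libraries labelled Irf8 cKO over Ctrl, for 6446 tested genes (grey, 1 of them outside the axes), 36 tested pathway genes (red) and Ptpn22 (open). The lower right quadrant holds 18 of the 36, and Ptpn22, Nfatc1 and Sh3bp2 lie above 0 in both experiments.

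The experiments differed in where the cascade lay. In experiment 1 the median log2 ratio of the members was 0.13 and in experiment 2 -0.12, while that of all tested genes was 0.001 and -0.026. A ratio above 0 in experiment 1 and below 0 in experiment 2 was found for 18 of 36 members (50%) and for 23.0% of all tested genes, and the reverse for 2 members. The 2 Ctrl libraries carried this gap. Ctrl 2 exceeded Ctrl 1 by a median of 0.17 on the log2 scale over the tested members, against 0.009 over all tested genes, whereas the libraries labelled Irf8 cKO 2 and 1 differed by -0.002 over the members. Ctrl 1 was the lowest library for 18 of 37 members (48.6%, against 29.8% of all tested genes) and Ctrl 2 the highest for 18 (48.6%, against 22.8%). Ctrl 1 also had the largest sum of myeloid markers, 71.2 scaled RPKM over the list against 12.4 to 27.2 in the other 3 libraries. Most of that sum came from S100a8, S100a9, Lyz2 and Ngp (20.7, 17.3, 13.1 and 9.44 in Ctrl 1). Camp, Ltf and Itgam were highest there too, while Apoe, Csf1r, C1qa and Emr1 were highest in a library labelled Irf8 cKO. The part of myeloid RNA in the gap was not tested. In bulk libraries fewer cells that carry a transcript and less of it per cell cannot be told apart. With 1 library per genotype and experiment the difference between experiments could not be tested.

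Groups that did not overlap were counted among the members and among all genes. For 3 of 36 (8.33%) both libraries labelled Irf8 cKO lay above both Ctrl libraries, against 14.0% of tested genes, and these were Blnk, Nfatc1 and Sh3bp2. Both lay below for 7 of 36 (19.4%), against 17.2% of tested genes, and these were Cblb, Csk, Grb2, Lat2, Lyn, Pag1 and Rasgrp3. Of the 3 higher members, Sh3bp2 passed the filter only through the pair labelled Irf8 cKO, so its place among them is no support by itself.

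**Figure D4:**
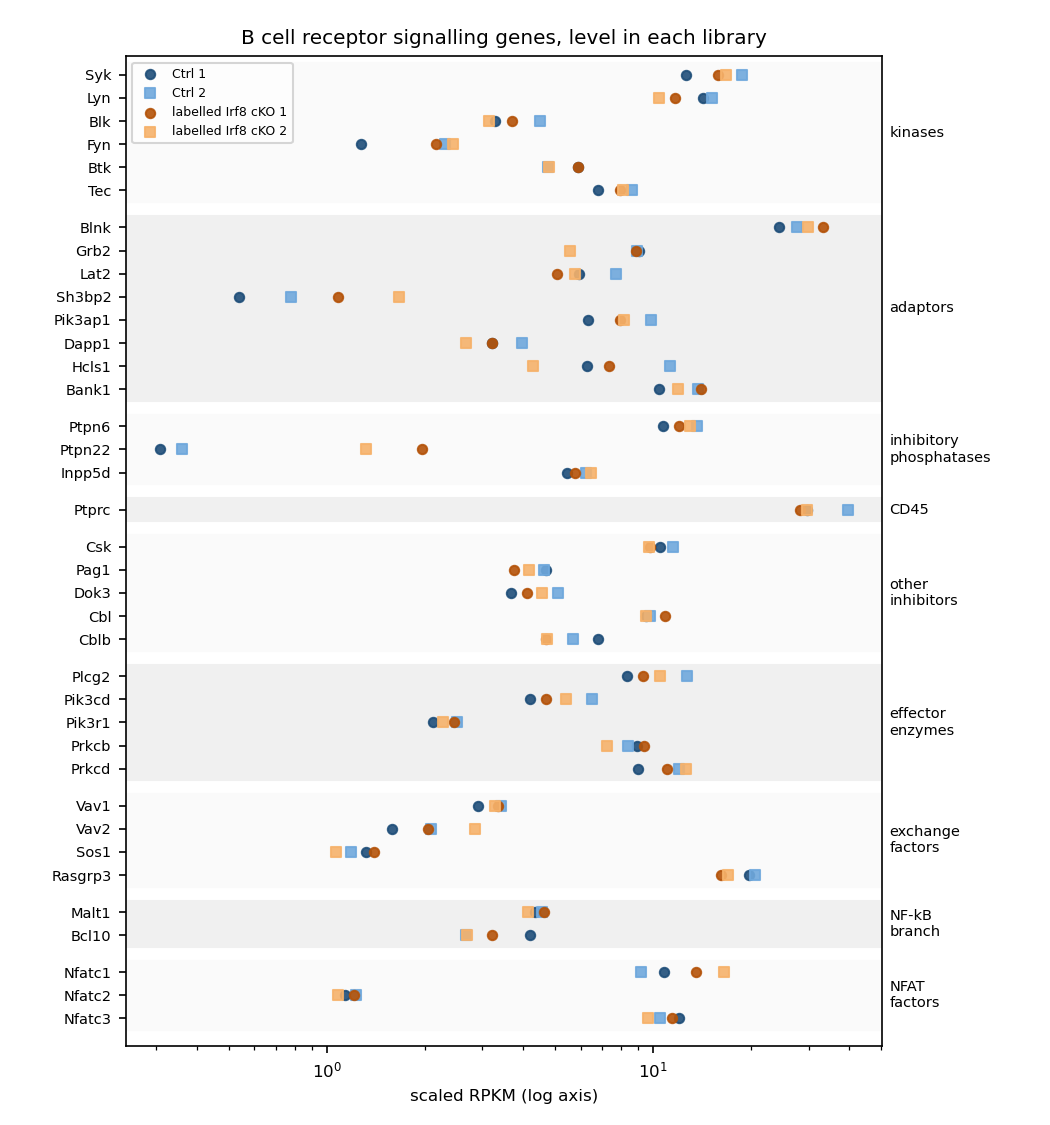
Scaled RPKM on a log axis for the 37 genes by role, in Ctrl 1 and 2 (dark and light blue) and the libraries labelled Irf8 cKO 1 and 2 (dark and light orange); coinciding points cover each other. In Ctrl the points run from Ptprc at the right to Sh3bp2 and Ptpn22 at the left, and in the libraries labelled Irf8 cKO Blnk is furthest to the right and Ptpn22 lies to the right of Sos1 and Nfatc2.

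In Ctrl cells the members spanned 103 times in level per length. Ptprc led at 34.6 scaled RPKM, followed by Blnk at 25.9, Rasgrp3 at 20.2, Syk at 15.7 and Lyn at 14.7 (means of 2 libraries). The lowest were Sos1 at 1.25, Nfatc2 at 1.18, Sh3bp2 at 0.659 and Ptpn22 at 0.335. Of 36 pairs of neighbours in this order 25 overlapped between libraries, Syk and Lyn among them, while Ptprc, Blnk and Rasgrp3 each stood clear of the next. The median over the members was 6.82 scaled RPKM, against 2.37 over all tested genes, and 30 of 37 lay above the latter. Of the inhibitory phosphatases Ptpn6 came after Syk and Lyn at 12.1, and Ptpn22 was the scarcest of all members.

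Other genes of the pathway, a list of 103 partners, were read in the same way. Of these 102 were found, 74 passed the filter, 0 were called in either direction (limma, Benjamini-Hochberg), and 1 lower and 4 higher had an unadjusted p under 0.05, against 6.10% and 5.35% of all tested genes, so the count of higher partners was that of the background. Their median log2 ratio was -0.068. Dgkz, which encodes a diacylglycerol kinase that removes the messenger made by PLCγ2, measured 2.34 and 3.92 scaled RPKM in Ctrl 1 and 2, then 4.28 and 7.20 in the pair labelled Irf8 cKO. It had the highest ratio, 0.70 (SE 0.17, 95% interval 0.34 to 1.05; adjusted p = 0.0748, limma). Lck, a Src family kinase best known from T cells, measured 2.91 and 2.86 against 4.77 and 3.98 (log2 ratio 0.46, adjusted p = 0.298, limma). The summed T cell markers given beside Ptpn22 were likewise higher in both libraries labelled Irf8 cKO, and their part in the ratio of Lck was not tested. On the deposited scale these ratios were smaller, at 0.30 for Dgkz and 0.093 for Lck.

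The calcium channel genes Itpr3 and Itpr2, which encode receptors for the messenger IP3, followed at 0.44 and 0.41 (adjusted p = 0.312 and 0.364, limma). Itpr3 measured 2.31 and 3.58 in Ctrl 1 and 2 against 3.54 and 5.12, and Itpr2 2.47 and 4.12 against 3.82 and 5.49. In both genes the groups overlapped, but each experiment showed the higher value in the library labelled Irf8 cKO. As deposited the ratios of Itpr3 and Itpr2 were 0.057 and 0.022. Ezr, which encodes ezrin, a linker of membrane and actin, measured 9.75 and 10.5 against 8.44 and 7.53 (log2 ratio -0.31, adjusted p = 0.549, limma).

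IRF8 binds DNA with ETS partners such as PU.1 at composite sites, and promoters were searched for their letters because the comparison is one of Irf8 genotypes. RefSeq windows of build GRCm38.p6, from 250 bases before to 50 bases after each annotated start, were at hand for 31 members and were searched on both strands. The composite, GGAA then any 2 bases then GAAA, was present in 3 of the 31 (9.68%: Bank1, Dapp1 and Cblb), against 3.16% of 27025 genes. The interferon response form, GAAA then any 2 bases then GAAA, was in 0, against 3.99%. The PU.1 type, whose letters are the capitals in the Grb2 and Vav1 lines, was in 2 (6.45%), against 0.507%. The first 2 patterns can overlap, and a match is a description of letters, not a binding site. The stretches with a match are shown 5′ to 3′ on the strand of the gene, with the match in capitals. All end before the annotated start of that window, and the one of Cblb, which also lies in an annotated exon, is cut to 30 bases.
Bank1, chr3:136326078-136326177, minus strand: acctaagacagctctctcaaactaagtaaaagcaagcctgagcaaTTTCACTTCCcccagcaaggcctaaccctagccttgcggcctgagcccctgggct
Dapp1, chr3:137981550-137981649, minus strand: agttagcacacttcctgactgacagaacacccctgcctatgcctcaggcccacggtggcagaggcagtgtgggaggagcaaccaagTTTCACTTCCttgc
Cblb, chr16:52031299-52031328, plus strand: ctgctacttTTTCAGTTCCtttcctcgttc
Grb2, chr11:115699537-115699636, minus strand: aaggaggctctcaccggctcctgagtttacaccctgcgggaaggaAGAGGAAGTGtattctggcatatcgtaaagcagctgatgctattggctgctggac
Vav1, chr17:57279000-57279099, plus strand: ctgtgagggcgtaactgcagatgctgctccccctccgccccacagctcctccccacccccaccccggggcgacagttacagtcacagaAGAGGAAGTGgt

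In Bank1, Dapp1 and Cblb the match reads on the reverse strand, and starts 66, 14 and 241 bases before the annotated start. The match of Grb2 lies before an annotated start at 115699534, not before the start of the deposited transcript at 115708597. The 3 genes with the composite had log2 ratios of 0.11, -0.22 and -0.34, and Grb2 and Vav1 -0.31 and 0.055, so the genes with a match did not share a direction. Ptpn22, the member with the largest difference, had a match to none of the 3 in either of its windows, and the 200 bases before the start nearest to that of the deposited transcript are shown for comparison.
Ptpn22, chr3:103860077-103860276, plus strand: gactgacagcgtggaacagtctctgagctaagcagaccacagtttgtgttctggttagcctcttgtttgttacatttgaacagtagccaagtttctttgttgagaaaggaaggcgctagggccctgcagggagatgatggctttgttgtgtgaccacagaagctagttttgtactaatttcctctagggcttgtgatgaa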

How the data were processed

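RPKM of 2 Ctrl and 2 Irf8 cKO libraries came from 1 table per experiment, made by the authors with Wardrobe (design text of the series). No aligner is tied to these tables: TopHat2 2.0, Cufflinks 2.2, Cuffdiff and DESeq, with builds mm9 and mm10, stand in the submitters' processing notes without a role (deposited gene coordinates match mm10). Per the file headers each deposited table also holds a log2 ratio and a p-value of the authors, 1 library against 1. Checked on the values, the authors' log2 ratio exceeds that of their RPKM by a constant, 0.205 (experiment 1) or 0.721 (experiment 2), to a tolerance of 0.05 in 97.1% and 96.2% of genes at 1 RPKM or more in both libraries.

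Each table has 23471 entries, and 2 repeated symbols were summed. RPKM were divided by median-of-ratios size factors (4614 genes at 1 RPKM or more in all libraries). This scale was chosen as the main one because the deposited values of all genes are displaced between genotypes, as an earlier analysis of these data had shown, and the authors' own ratio also carries an offset. Genes whose deposited RPKM reached 1 in 2 or more libraries were fitted with limma 3.58.1 in R 4.3.3 (lmFit, eBayes with trend, 2-sided, prior degrees of freedom 13.61) on log2(scaled RPKM + 1), with the experiment as a block and Benjamini-Hochberg adjustment over 6446 genes. The block rests on the experiment numbers in the labels; deviations of same-numbered libraries from their group means correlated at 0.333. The fit was tested on simulated data, with the same spread for every gene and with changes larger than the ratios of the tested members. That run does not show how often changes of the members' size are found. Tables used pandas 2.3.3 and numpy 2.4.6 under Python 3.11.15, and figures matplotlib 3.10.9.

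Depth was estimated from the spacing of low RPKM times GENCODE transcript length. Whole numbers to a tolerance of 0.1 reads were found for only 65.0% to 67.6% of low values, so no count model was run and read numbers are approximate. The members, lists and tests were chosen with earlier results of these data known. All 37 members are named. Full statistics are given for kinases, phosphatases and, among the other roles, the 6 highest and 6 lowest ratios with the same sign in both experiments (5 were higher), and partners are taken from the 4 highest and 4 lowest such ratios, of which some are not reported here. Hcls1 was shown in full after its values were seen.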

Additional observations from a re-analysis of the deposited data

How the results depend on the processing

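No tested member was called in either direction on the deposited scale, with other pseudocounts (0.1 and 4), with no filter (37 members tested), at a floor of RPKM 5 (25 tested), without the trend, centred by transcript length or without any 1 library. Added after seeing the data, RPKM of 1 or more in at least 1 library called 1 member higher, Ptpn22, with a pseudocount of 1 or 0.1, where the ratio of Ptpn22 was 1.98 at 0.1 and 0.38 at a pseudocount of 4. Counts over all genes depended on the setting, against 26 lower and 15 higher: 70 and 6 as deposited, 14 and 8 with a pseudocount of 0.1, 16 lower with a pseudocount of 4, 0 and 0 with no filter or with centring by transcript length, 5 and 2 with no replicate block, 0 to 1 and 0 to 1 without any 1 library, 25 higher with the added filter, and 47 and 37 when a pseudocount of 0.1 was added to it (1 partner, Dgkz, then called higher). At an unadjusted p under 0.05 limma with no filter gave 598 lower and 620 higher genes. Limma's prior degrees of freedom moved as well, from 13.61 to 5.57 with no filter, 5.91 with centring by length, 8.90 without the block and 30.72 with the added filter and pseudocount of 0.1, and were infinite as deposited, so the share called over all genes is not a stable figure. The cause was not tested. Without the block 0 members and 0 partners were called, as with it. The partners' median relative to all genes was -0.011 with no filter and -0.082 at a floor of RPKM 5 in 2 libraries. On the deposited scale 14 members changed sign: Bank1 -0.34, Blnk -0.20, Btk -0.40, Cbl -0.37, Fyn -0.046, Inpp5d -0.36, Pik3ap1 -0.41, Pik3r1 -0.30, Prkcd -0.29, Ptpn6 -0.40, Syk -0.39, Tec -0.37, Vav1 -0.31 and Vav2 -0.060. Dok3 went to 0.002 with a pseudocount of 0.1 (with either filter) and to 0.096 with centring by transcript length, and Pik3r1 to -0.041 with the latter. Leaving out any 1 library gave ranges across 0 for Blk (-0.32 to 0.048), Btk (-0.12 to 0.13), Fyn (-0.001 to 0.54), Inpp5d (-0.030 to 0.14), Prkcd (-0.030 to 0.36), Ptpn6 (-0.11 to 0.22), Syk (-0.20 to 0.34) and Tec (-0.097 to 0.21), while the other 13 members with full statistics kept their sign. Those fits leave a group with 1 library, which is assumed to vary like the others. They also leave out the experiment block, so their counts of calls do not show the effect of the missing library alone. Libraries with few exonic reads limit the genes near 1 RPKM, Ptpn22 and Sh3bp2 among them.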
